A study of Mus musculus with 24 samples.

Results

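The mitochondrially encoded genes are those carried by the mitochondrial chromosome itself. They were found here as the genes of the count table whose Ensembl identifier maps to a symbol starting with mt-. The table holds 32 of them among 12615 genes, out of 37 genes that the annotation places on this chromosome. They comprise 13 messenger RNAs, 2 ribosomal RNAs and 17 transfer RNAs. The transfer RNAs mt-Tf, mt-Ti, mt-Td, mt-Ts2 and mt-Tt have no row in the table and were not analysed here.

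RNA from mouse tissue labelled brown fat was measured by 3′ tag sequencing (QuantSeq), which reads the stretch next to the poly(A) end of each transcript, in 24 mice. Every mouse carried loxP-flanked alleles of both genes of a transcriptional co-factor complex (TBLR1 fl/fl and TBL1 fl/fl), and every mouse was injected with tamoxifen. The BATdKO groups also carried the Ucp1CreERT2 transgene, in which the Ucp1 promoter limits a tamoxifen-activated Cre recombinase to brown adipocytes, and the Cre- groups did not. By their labels, all mice were raised at 22°C. Each genotype was then housed either at 30°C for 4 days or, after a stepwise decrease from 22°C, at 8°C for 6 days. This gave 4 groups of 6 mice. The label places the tamoxifen injections at 5 years of age, a mouse age that cannot be right, and the start of the temperature protocol 3 weeks after the last one. Labels name female mice, whereas the study's text names males, and the study's text also gives another number of days in the cold.

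The mitochondrial chromosome is copied into long RNAs from both of its strands. Most genes are read from the heavy strand promoter, and one messenger RNA, mt-Nd6, and several transfer RNAs are read in the other direction and are called light-strand members here. The transfer RNAs lie between the other genes and are cut out of the long RNAs, which frees the messengers and ribosomal RNAs on either side. The messengers encode core subunits of the respiratory complexes I, III, IV and V, all other subunits of which are made from nuclear genes, and brown adipocytes are known for their dense mitochondria, in which the uncoupling protein Ucp1 turns respiration into heat.

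3 transfer RNAs carry the largest differences reported below, mt-Tv, mt-Tc and mt-Tn, and their sequences are given first. They are written 5′ to 3′ on the strand of the gene, from the GENCODE M21 transcripts on GRCm38, and the capitals mark the anticodon.
mt-Tv, chrM:1025-1093, heavy-strand member between both ribosomal RNAs: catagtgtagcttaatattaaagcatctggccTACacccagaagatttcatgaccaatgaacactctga
mt-Tc, chrM:5192-5257, light-strand member: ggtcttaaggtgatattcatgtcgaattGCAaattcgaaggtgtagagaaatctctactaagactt
mt-Tn, chrM:5089-5159, light-strand member next to mt-Tc: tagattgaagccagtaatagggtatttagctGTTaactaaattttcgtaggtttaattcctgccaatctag
The 3 sequences contain no run of A longer than 3 bases. Whether reads on transfer RNA rows came from the cut transfer RNA or from longer RNAs that hold its sequence was not tested. Values of these rows below are therefore counts on the gene and not levels of the finished transfer RNA.

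The ends of the messengers matter for a 3′ tag method, since the tag sits beside them. The annotated genes mt-Co3, mt-Nd4 and mt-Cytb stop 1 base after their last whole codon, and that base, a T, becomes a stop codon only when A residues are added behind it. The last 30 bases of these 3 genes are shown with that base in capitals, followed by the ends of mt-Nd5 and mt-Nd6, which face each other and overlap by 14 bases on opposite strands.
mt-Co3, complex IV: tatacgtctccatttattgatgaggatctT
mt-Nd4, complex I: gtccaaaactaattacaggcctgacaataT
mt-Cytb, complex III: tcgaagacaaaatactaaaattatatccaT
mt-Nd5, complex I, heavy strand: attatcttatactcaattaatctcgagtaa
mt-Nd6, complex I, light strand: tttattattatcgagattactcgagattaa
Whether reads were counted by strand is not given in the sources used here. Reads of a light-strand member and of the heavy-strand RNA that runs opposite to it can therefore not be told apart with certainty, which concerns mt-Nd6, mt-Tc and mt-Tn among the members named most often below.

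Total counts ran from 699703 to 11527643 per library, the lowest being mouse m4 of the Cre- 30°C group and all other libraries holding at least 2738613 (mice are numbered m1 to m6 within a group). The deleted genes went against the genotype label. Normalised expression (CPM, counts scaled to library size with TMM factors) of Tbl1xr1 had a median of 21.7 in Cre- and 34.5 in BATdKO libraries at 30°C and of 21.0 and 39.5 at 8°C, and those of Tbl1x were 39.9, 55.1, 40.7 and 54.3 in the same order. For Tbl1xr1 at 8°C the groups did not overlap. Which exons are deleted and whether the 3′ tags lie outside them was not tested, so the labels were not checked by this, and the groups are called libraries labelled BATdKO below. Ucp1 was present in every library, with a median of 130 CPM (range 28.9 to 548) in Cre- and 314 CPM (84.7 to 412) in BATdKO libraries at 30°C, and 1516 CPM (968 to 2076) and 1768 CPM (1331 to 2029) at 8°C. All 13 brown adipocyte markers were in the table, but they held only 0.087% to 0.533% of the counts, against 3.22% to 5.04% for 10 hepatocyte markers and 11.5% to 17.5% for 38 genes of the major urinary proteins (Mup), which are abundant in liver. These shares put the tissue label in doubt, and how much of the mitochondrial counts came from tissue other than brown fat was not tested. Whether reads that match more than 1 Mup row were counted for each of them was not tested either. These are whole-tissue libraries, so fewer cells of a type and less RNA per cell cannot be told apart, and which cells gave the mitochondrial counts is not known from them.

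The 32 members together took 19.3% to 37.9% of the counts of each library, and their mean share was higher in both 8°C groups than in the group of the same label at 30°C. In Cre- libraries the share ran from 19.3% over a median of 24.8% to 29.7% at 30°C and from 26.7% over 30.8% to 34.4% at 8°C. Libraries labelled BATdKO ranged from 24.0% over 27.8% to 32.8% at 30°C and from 28.1% over 31.1% to 37.9% at 8°C. The ranges of the 2 temperatures overlapped within both labels. As means, the share was 24.3% ± 3.68 (SD, n = 6) in Cre- and 27.8% ± 3.40 in BATdKO libraries at 30°C, and 30.9% ± 2.89 and 31.6% ± 3.57 at 8°C, so that the mean differed by 6.54 percentage points with cold in Cre- and by 3.81 in BATdKO libraries, and by 0.767 between labels at 8°C. No test was run on this sum over the members. Counting error is small beside that spread, with 95% Wilson intervals at most 0.205 percentage points wide.

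**Figure D1:**
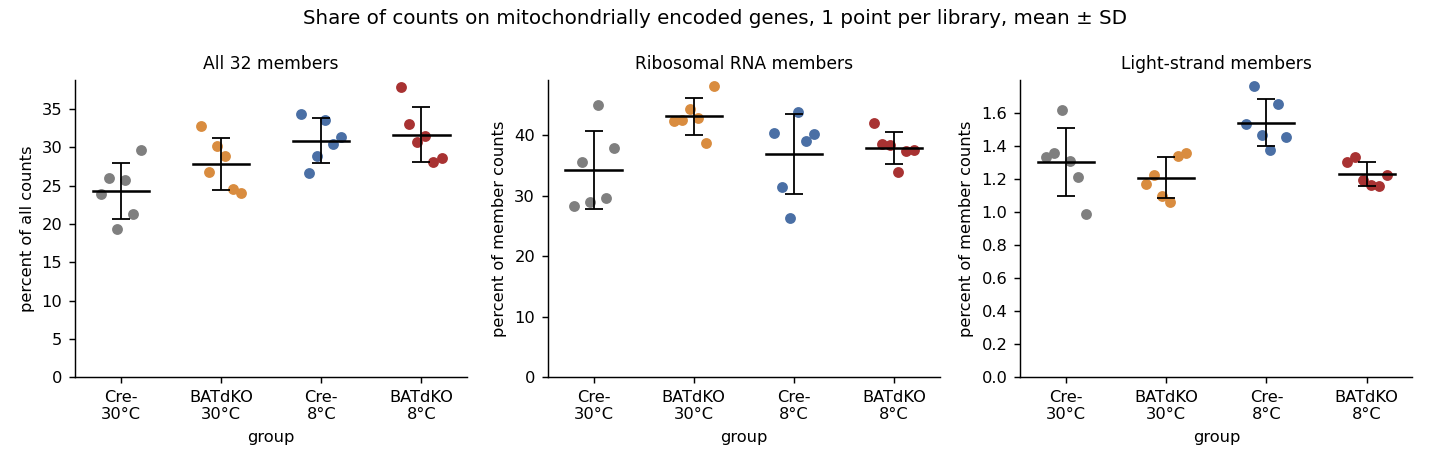
Share of counts on the mitochondrially encoded genes in each library (points), with the mean and SD of each group of 6 (lines). Left, percent of all counts on the 32 members, whose group means are 24.3, 27.8, 30.9 and 31.6. Centre, ribosomal RNA members as percent of the member counts. Right, light-strand members as percent of the member counts, where the Cre- libraries at 8°C (1.38 to 1.76) all lie above the BATdKO libraries at 8°C (1.16 to 1.33). Most of these counts fall on mt-Nd6, and the light-strand transfer RNAs alone overlap between these groups.

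Every marker list had different median shares at the 2 temperatures. The hepatocyte markers had median shares of 4.63% at 30°C and 3.92% at 8°C in Cre- libraries (4.22% and 4.02% in BATdKO libraries), while the brown adipocyte markers had medians of 0.167% and 0.387% (0.343% and 0.442% in BATdKO libraries). Medians of the erythroid markers, 4 of 5 of which are in the table, were 0.404% and 0.520% in Cre- and 0.371% and 0.482% in BATdKO libraries. Those of 7 macrophage markers were 0.0205% and 0.0162% in Cre- and 0.0213% and 0.0171% in BATdKO libraries. Endothelial markers had medians of 0.0172% and 0.0207% (0.0183% and 0.0189% in BATdKO libraries), and 2 B cell markers 0.0051% and 0.0037% (0.0066% and 0.0055%). Skeletal muscle markers went in opposite directions, with 0.0282% and 0.0525% in Cre- and 0.0232% and 0.0058% in BATdKO libraries. The ranges of the 2 temperatures overlapped within each label for every list. With the hepatocyte, Mup and nuclear copy rows (below) taken out of the total, a choice made after seeing the data, the members made up 32.5%, 36.6%, 40.4% and 41.7% of what was left in Cre- 30°C, BATdKO 30°C, Cre- 8°C and BATdKO 8°C libraries. The order of the 4 groups was the same as without this step. The part of these cell types in the mitochondrial share was not tested.

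Among the member counts, messengers held most in every library. Ribosomal RNAs held 34.3% ± 6.52 (SD, n = 6) of them in Cre- and 43.2% ± 3.07 in BATdKO libraries at 30°C, and 36.9% ± 6.59 and 38.0% ± 2.62 at 8°C. As a percent of all counts, messengers held 15.8% in both 30°C groups, and ribosomal RNAs held 8.48% ± 2.59 in Cre- and 12.0% ± 1.59 in BATdKO libraries. At 8°C the messengers took 19.3% ± 1.22 of all counts in Cre- and 19.5% ± 1.72 in BATdKO libraries. The ribosomal share of the 30°C libraries ran from 5.61% to 11.6% in Cre- and from 9.49% to 13.9% in BATdKO libraries, with an overlap, and no test was run on it. Transfer RNAs held 0.163% to 0.451% of the member counts, and most of their counts fell on light-strand transfer RNAs. 3′ tag counts depend on how well the oligo-dT primer of the kit finds an A-rich stretch in each RNA, so these are shares of counts and not of RNA molecules.

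Light-strand members, with mt-Nd6 as their main source of counts, held 1.38% to 1.76% of the member counts in Cre- libraries at 8°C and 1.16% to 1.33% in BATdKO libraries at 8°C, and the 2 groups did not overlap. At 30°C the ranges were 0.987% to 1.62% and 1.06% to 1.36%. The light-strand transfer RNAs alone held 0.169% to 0.241% in Cre- and 0.175% to 0.252% in BATdKO libraries at 8°C. Those ranges overlapped, and the mean was higher under the BATdKO label (0.222% against 0.206%). No test was run on these class totals either.

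The first comparison was cold in the control mice (8°C against 30°C in Cre- libraries). All 32 members passed the filter on low counts. Of these, 19 rose with cold and 0 fell at an adjusted p under 0.1 (edgeR quasi-likelihood test, Benjamini-Hochberg over 12485 genes), and 31 of 32 had a positive log2 fold change. Of all genes tested, 9.15% were called in this comparison and 5.57% were called higher. The median log2 fold change was 0.62 over the members and -0.02 over all genes. CPM values of 12 members did not overlap between the groups, against 2.93% of all genes. Libraries of the 2 temperatures carry separate runs of library numbers, and the mice were held for 4 days at 30°C and 6 days at 8°C. Neither a library batch nor the number of days can therefore be told apart from temperature in either cold comparison.

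Of the ribosomal RNAs, mt-Rnr1, the RNA of the small mitochondrial ribosomal subunit, rose from a mean of 20940 CPM to 32721 CPM (log2 fold change 0.64 ± 0.17 SE, edgeR adjusted p = 0.021). The RNA of the large subunit, mt-Rnr2, had 58408 and 87755 CPM and a similar log2 fold change of 0.59 ± 0.22, which did not pass (adjusted p = 0.123) but was called in 4 of 33 alternative fits, each with 1 library left out. Both groups spread widely for it, from 33904 to 86986 CPM at 30°C and from 58114 to 115530 CPM at 8°C.

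Most of the complex I messengers rose, among which the light-strand messenger mt-Nd6 had the smallest p of any messenger. Its CPM ran from 1948 over a median of 2366 to 2836 at 30°C and from 3775 over 4240 to 4933 at 8°C in Cre- libraries, with no overlap (log2 fold change 0.83 ± 0.12 SE, edgeR adjusted p = 5.25e-05). Its heavy-strand neighbour mt-Nd5 ran from 2424 to 3435 CPM and from 3882 to 6409 CPM (0.77 ± 0.14, adjusted p = 0.000449), also without overlap. mt-Nd1, the first messenger after the ribosomal RNAs, ran from 6938 to 10291 CPM and from 11822 to 17078 CPM (0.77 ± 0.13, adjusted p = 0.000213). The log2 fold changes of mt-Nd2 (0.62 ± 0.13), mt-Nd3 (0.99 ± 0.26) and mt-Nd4l (0.38 ± 0.09) were past the threshold as well, with adjusted p of 0.00236, 0.0178 and 0.0114. mt-Nd4, which alone took 19.5% of all member counts, did not pass (0.22 ± 0.11, adjusted p = 0.30).

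Outside complex I fewer messengers passed. Both complex V messengers rose, mt-Atp6 by 0.47 ± 0.12 (edgeR adjusted p = 0.0194) and mt-Atp8 by 0.94 ± 0.22 (adjusted p = 0.00883). These 2 genes share 43 bases. Of the cytochrome c oxidase (complex IV) messengers, mt-Co1 rose by 0.42 ± 0.12 (adjusted p = 0.04), while mt-Co2 stood at the threshold (0.75 ± 0.27, adjusted p = 0.10) and mt-Co3 did not pass (0.23 ± 0.09, adjusted p = 0.129). mt-Co2 was called in 16 of 33 alternative fits and mt-Co3 in 3. The call of mt-Co1 was lost without Cre- 30°C mouse m3 or without Cre- 8°C mouse m4 (adjusted p up to 0.135). The complex III messenger mt-Cytb had 0.49 ± 0.25 (adjusted p = 0.30).

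The transfer RNAs differed most among themselves. mt-Tc, which carries cysteine, ran from 5.43 over a median of 7.73 to 8.75 CPM at 30°C and from 14.4 over 23.5 to 25.4 CPM at 8°C in Cre- libraries (log2 fold change 1.60 ± 0.24 SE, edgeR adjusted p = 7.37e-05). Its neighbour mt-Tn, for asparagine, ran from 17.8 to 38.6 CPM and from 52.2 to 94.3 CPM (1.36 ± 0.20, adjusted p = 5.25e-05). Neither overlapped between the groups. The next gene of this light-strand cluster, mt-Ta for alanine, rose less (0.58 ± 0.15, adjusted p = 0.0143), and mt-Ty for tyrosine, on the other side of mt-Tc, had 0.26 ± 0.29 (adjusted p = 0.706) with 0 to 51 counts per library. Other transfer RNAs past the threshold were mt-Te, mt-Tl1, mt-Tl2, mt-Tm, mt-Tp and mt-Tr, with log2 fold changes of 0.78, 0.80, 0.84, 0.64, 0.74 and 0.75. The call of mt-Tl2 was lost without any 1 of Cre- 30°C mice m2 and m5 and Cre- 8°C mouse m1 (adjusted p up to 0.154), and that of mt-Tr without Cre- 8°C mouse m6 (adjusted p = 0.14). The most counted transfer RNA row, mt-Ts1 for serine, was the 1 member with a negative value (-0.24 ± 0.20, adjusted p = 0.58), and mt-Tq for glutamine had 0.57 ± 0.38 (adjusted p = 0.456).

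**Figure D2:**
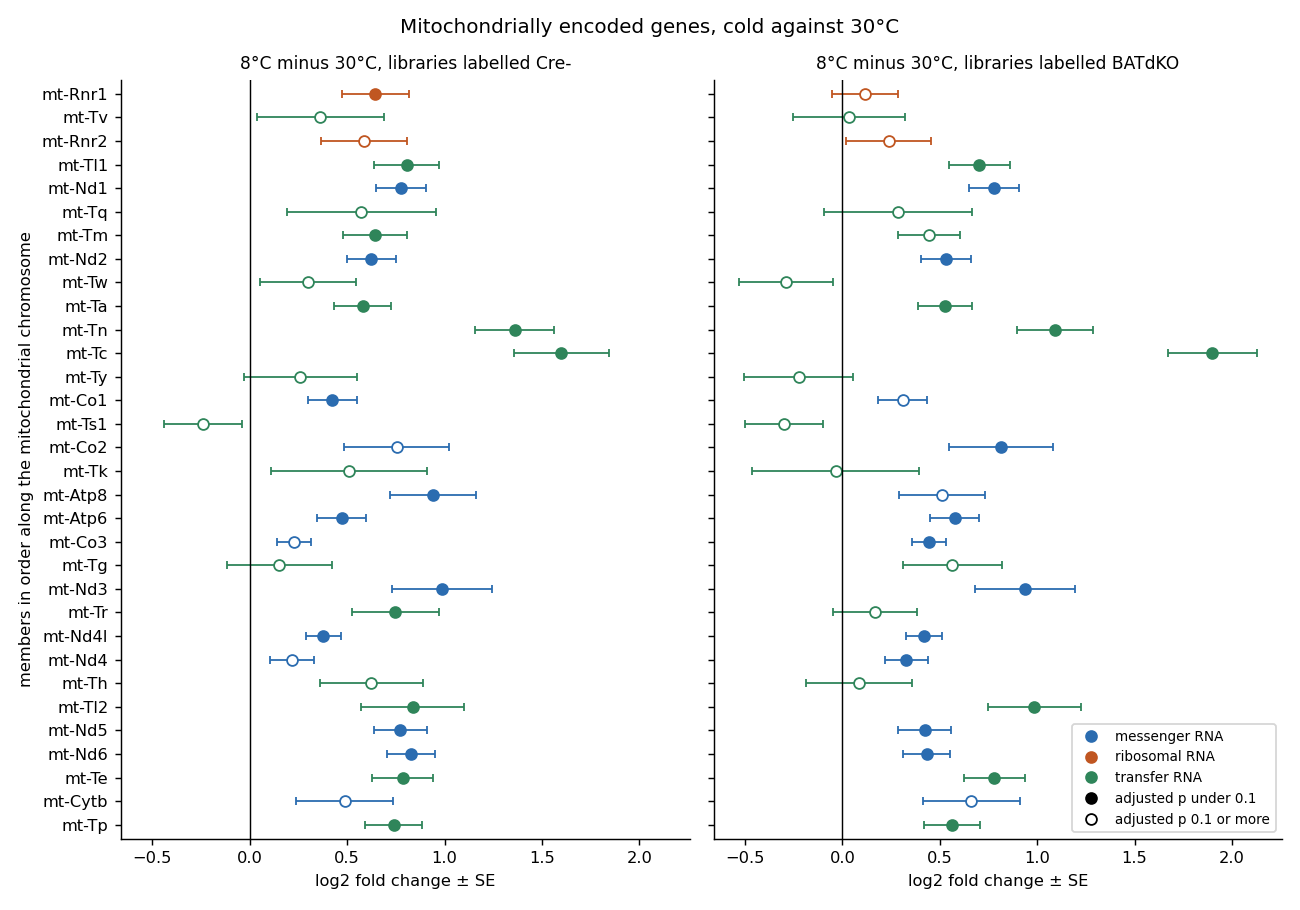
Log2 fold change (x axis, ± SE) of each of the 32 members from 30°C to 8°C, in order along the mitochondrial chromosome (y axis), in Cre- libraries (left) and libraries labelled BATdKO (right). Filled points have an adjusted p under 0.1, 19 on the left and 17 on the right, all of them to the right of 0. The neighbours mt-Tn and mt-Tc have the largest values in both panels.

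The second comparison was cold under the BATdKO label. Here 17 of the 32 members rose and 0 fell (edgeR, adjusted p under 0.1), against 7.07% of all genes called and 3.76% called higher. The median log2 fold change was 0.44 over the members and -0.0026 over all genes, and the CPM of 5 members did not overlap between temperatures, against 2.99% of all genes. mt-Tc again had the largest change, from 7.64 over a median of 12.0 to 15.0 CPM at 30°C to 26.4 over 38.1 to 88.4 CPM at 8°C (1.90 ± 0.23 SE, adjusted p = 5.6e-06), and the groups did not overlap. mt-Tn ran from 27.8 to 62.5 CPM and from 56.9 to 140 CPM (1.09 ± 0.20, adjusted p = 0.000813), with an overlap.

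Ribosomal RNAs did not pass in these libraries. mt-Rnr1 had 0.12 ± 0.17 (edgeR adjusted p = 0.797) and mt-Rnr2 0.24 ± 0.22 (adjusted p = 0.642). The messengers past the threshold were mt-Nd1 (0.78 ± 0.13), mt-Nd2 (0.53 ± 0.13), mt-Nd3 (0.94 ± 0.26), mt-Nd4l (0.42 ± 0.09), mt-Nd5 (0.42 ± 0.14), mt-Nd6 (0.43 ± 0.12), mt-Atp6 (0.58 ± 0.12), mt-Co3 (0.44 ± 0.09), mt-Co2 (0.81 ± 0.27) and mt-Nd4 (0.33 ± 0.11). Their adjusted p ranged from 0.000365 for mt-Nd1 to 0.0977 for mt-Nd4. The last call was lost in 22 of 33 alternative fits, that of mt-Co2 in 9, that of mt-Nd5 in 7 and that of mt-Nd6 in 4, as was the call of the transfer RNA mt-Tp (0.56 ± 0.14) in 1 of them. mt-Co1 (0.31 ± 0.12, adjusted p = 0.18), mt-Atp8 (0.51 ± 0.22, adjusted p = 0.217) and mt-Cytb (0.66 ± 0.25, adjusted p = 0.143, called in 2 of 33 alternative fits) did not pass. Both cold comparisons rest on separate libraries and share no control.

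Transfer RNAs called here were mt-Ta, mt-Tc, mt-Te, mt-Tl1, mt-Tl2, mt-Tn and mt-Tp. mt-Te for glutamate, the second most counted transfer RNA, ran from 82.1 over 140 to 146 CPM at 30°C and from 141 over 202 to 327 CPM at 8°C under the BATdKO label (0.78 ± 0.16 SE, edgeR adjusted p = 0.00257). In Cre- libraries it ran from 72.3 over 95.5 to 117 CPM and from 139 over 164 to 194 CPM (0.78 ± 0.16, adjusted p = 0.00196).

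Whether the members moved as a block was asked by setting each library size to its count on the 13 messengers, which centres the messengers and asks how a member changed against them. On this scale the median log2 fold change of all genes was -0.47 for cold in Cre- and -0.51 in BATdKO libraries. In Cre- libraries 7 members were then higher at 8°C and 3 lower (edgeR, adjusted p under 0.1), against 1.74% of all genes called higher and 66.4% called lower. With so many genes called, the adjusted threshold was a loose one. It was passed by 10 members, of which not all had an unadjusted p under 0.05, as only 9 members did. Higher were mt-Tc (1.15 ± 0.21 SE), mt-Tn (0.92 ± 0.19), mt-Nd3 (0.55 ± 0.18), mt-Atp8 (0.49 ± 0.19), mt-Nd6 (0.37 ± 0.12), mt-Nd1 (0.32 ± 0.10) and mt-Nd5 (0.31 ± 0.16). Lower were mt-Ts1 (-0.74 ± 0.28), mt-Co3 (-0.24 ± 0.11) and mt-Nd4 (-0.24 ± 0.10), and the sign of mt-Co3 and mt-Nd4 turned with the scale. Of the complex I messengers, mt-Nd1, mt-Nd3, mt-Nd5 and mt-Nd6 were thus higher and mt-Nd4 lower against the messenger total. Each messenger is itself part of that total, mt-Nd4 with the largest count, so these opposite signs are tied to each other. All 3 lower calls were lost without Cre- 30°C mouse m3, which left 8 members higher and 0 lower (198 and 6459 of 12515 genes).

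In BATdKO libraries the same scale gave 5 members higher and 5 lower, against 0.873% and 73.5% of all genes. The adjusted threshold was again loose, with 10 members past it and 8 at an unadjusted p under 0.05. Higher were mt-Tc (1.35 ± 0.20 SE), mt-Tn (0.55 ± 0.18), mt-Nd3 (0.47 ± 0.18), mt-Co2 (0.36 ± 0.19) and mt-Nd1 (0.27 ± 0.10). Lower were mt-Tw (-0.85 ± 0.27), mt-Ts1 (-0.86 ± 0.28), mt-Ty (-0.76 ± 0.34), mt-Tv (-0.47 ± 0.25) and mt-Rnr1 (-0.43 ± 0.18), of which mt-Tv and mt-Rnr1 had values just above 0 by TMM. mt-Tc, mt-Tn, mt-Nd1 and mt-Nd3 were therefore higher with cold on both scales under both labels.

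The third comparison was the genotype label at 8°C. Only 2 of 32 members were called, both higher in libraries labelled BATdKO, against 1.82% of all genes called and 0.697% called higher. The median log2 fold change was 0.09 over the members and -0.0001 over all genes. mt-Tc, whose sequence is given above, ran from 14.4 over 23.5 to 25.4 CPM in Cre- and from 26.4 over 38.1 to 88.4 CPM in BATdKO libraries, and the groups did not overlap (1.01 ± 0.22 SE, edgeR adjusted p = 0.0123). It was the 1 member without overlap in this comparison, against 1.95% of all genes. mt-Tv, for valine, ran from 8.03 over 10.6 to 13.9 CPM and from 12.7 over 24.4 to 49.7 CPM (1.21 ± 0.31, adjusted p = 0.049), and 1 BATdKO library, that of mouse m6, fell within the Cre- range. Its call was lost without Cre- 8°C mouse m3, without Cre- 8°C mouse m4, without BATdKO 8°C mouse m1 and with robust dispersion estimates, with adjusted p up to 0.129. Both calls rest on small numbers, 46 to 110 counts per Cre- library and 65 to 256 per BATdKO library for mt-Tv, and 86 to 212 and 135 to 481 for mt-Tc.

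No messenger or ribosomal RNA passed at 8°C. The messenger with the largest log2 fold change in size was mt-Nd6 (-0.28 ± 0.12 SE, edgeR adjusted p = 0.442), with 3775 over 4240 to 4933 CPM in Cre- and 2639 over 3242 to 4859 CPM in BATdKO libraries, of which 4 of 6 lay below every Cre- library. With library totals and no normalisation factors this gene was called lower (adjusted p = 0.0899), which made 2 members higher and 1 lower in place of 2 and 0, against 2.37% of all genes called. The ribosomal RNAs mt-Rnr1 (-0.04 ± 0.17) and mt-Rnr2 (0.20 ± 0.22) differed by less than their errors. The other 12 messengers had log2 fold changes from -0.13 for mt-Nd5 to 0.18 for mt-Co3. mt-Ta came close (0.47 ± 0.14, adjusted p = 0.115) and was called in 6 of 33 alternative fits. Without BATdKO 8°C mouse m6, 4 members were called, mt-Te being the fourth, against 1.23% of all genes. With only the compared groups in the fit 4 were called, against 4.01% of all genes, and with robust dispersion 1 was, against 1.62%.

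At 30°C no member passed (edgeR, adjusted p under 0.1), and 0% of all genes were called. At an unadjusted p under 0.05 the comparison held 11 members and 1303 genes in all, and DESeq2 called 2 members, mt-Tv and mt-Ta, and 0.807% of all genes. The median log2 fold change was 0.26 over the members and -0.01 over all genes, and 0 members had groups without overlap, against 0.296% of all genes. mt-Tv had 5.24 over 7.22 to 14.6 CPM in Cre- and 11.1 over 26.0 to 40.3 CPM in BATdKO libraries (1.53 ± 0.31 SE, adjusted p = 0.149). Its value therefore lay near that at 8°C, and 5 of 6 Cre- libraries were below every BATdKO library, the exception being Cre- mouse m6. It was called in 6 of 33 alternative fits, by DESeq2 and without any 1 of Cre- 30°C mice m2 and m6, BATdKO 30°C mice m4 and m6 and BATdKO 8°C mouse m6. Without BATdKO 30°C mouse m4, 5 members were called (mt-Ta, mt-Tl1, mt-Tm, mt-Tn and mt-Tv) and 0.376% of all genes, and without Cre- 30°C mouse m6, 3 were (mt-Ta, mt-Tn and mt-Tv) and 2.95% of all genes. mt-Rnr1 (0.49 ± 0.17, adjusted p = 0.286) and mt-Rnr2 (0.55 ± 0.22, adjusted p = 0.366) had the largest values outside the transfer RNAs, and mt-Tc had 0.71 ± 0.25 (adjusted p = 0.305).

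**Figure D3:**
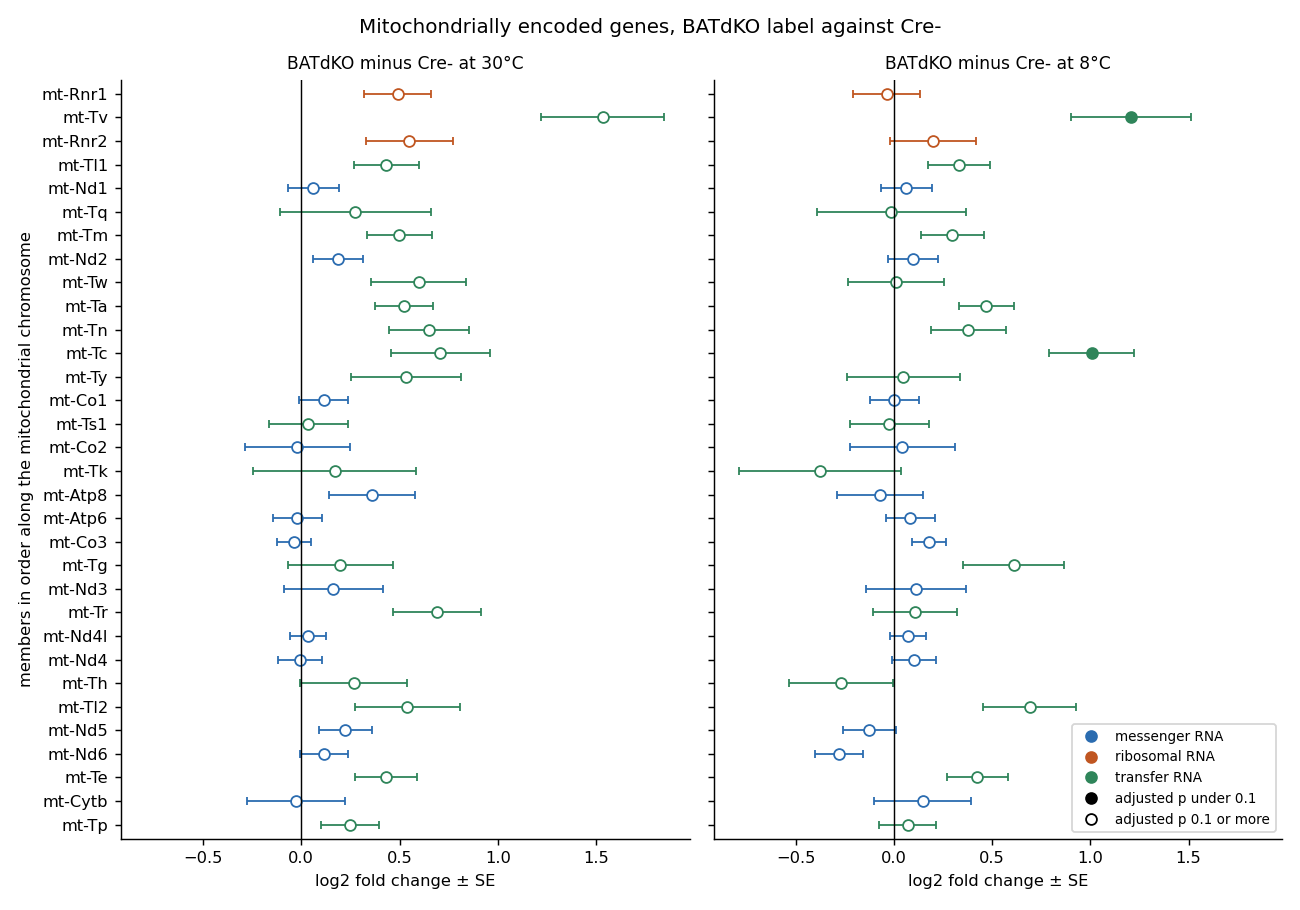
Log2 fold change (x axis, ± SE) of each of the 32 members between libraries labelled BATdKO and Cre-, at 30°C (left) and 8°C (right), in order along the mitochondrial chromosome (y axis). Filled points have an adjusted p under 0.1, 0 on the left and 2 on the right (mt-Tv and mt-Tc). mt-Tv lies far to the right in both panels.

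Scaled to the messengers, mt-Tv (1.12 ± 0.26 SE, edgeR adjusted p = 0.0194) and mt-Tc (0.91 ± 0.19, adjusted p = 0.00839) were again the 2 members called at 8°C, against 1.44% of all genes. At 30°C mt-Tv was the 1 member called on this scale (1.55 ± 0.27, adjusted p = 0.028), against 0.2% of all genes, and 0 members of 0 genes in all were called without BATdKO 30°C mouse m2 and 2 members of 11 genes without BATdKO 30°C mouse m4. No member was called for the interaction, neither by TMM (0.0961% of all genes) nor scaled to the messengers (0.168%), and DESeq2 called 0 as well. At an unadjusted p under 0.05 the interaction held 2 members, mt-Nd6 (-0.40 ± 0.17, adjusted p = 0.556) and mt-Rnr1 (-0.53 ± 0.24, adjusted p = 0.584). The difference of mt-Tv between labels was not shown to depend on temperature (-0.33 ± 0.43, adjusted p = 0.897). The same holds for mt-Tc (0.30 ± 0.33, adjusted p = 0.866).

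**Figure D4:**
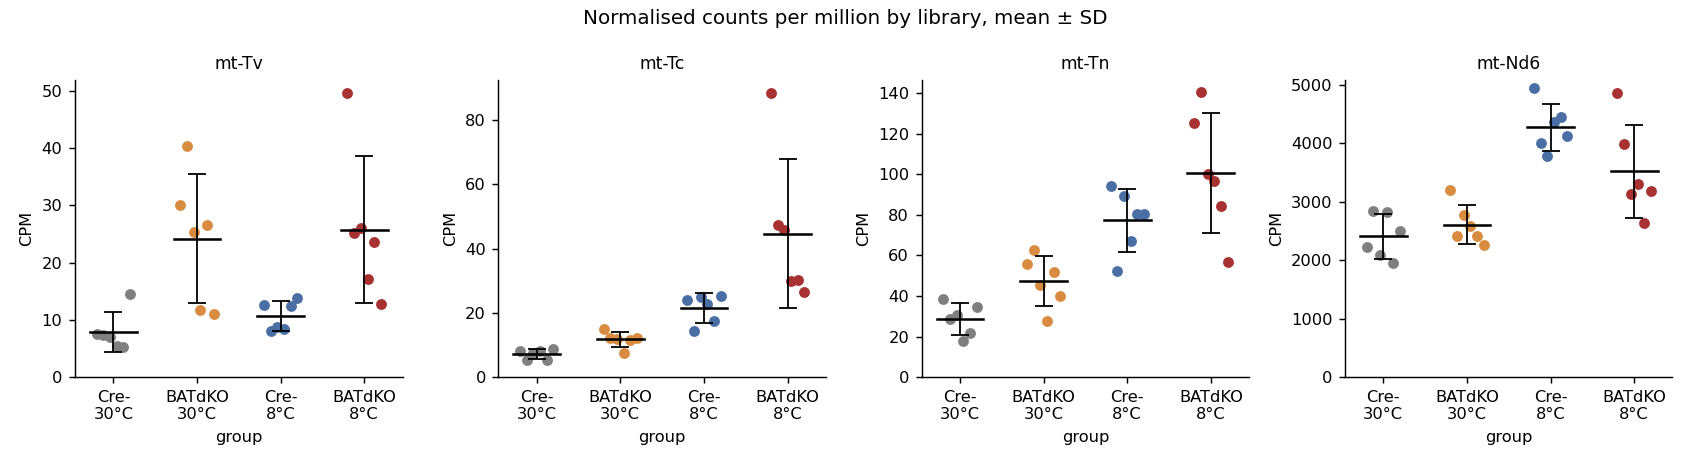
CPM (y axis, TMM-normalised) of mt-Tv, mt-Tc, mt-Tn and mt-Nd6 in each library (points) of the 4 groups of 6 (x axis), with mean and SD (lines). For mt-Tc the 6 libraries labelled BATdKO at 8°C (26.4 to 88.4) all lie above the Cre- libraries at 8°C (14.4 to 25.4), and for mt-Nd6 the Cre- libraries at 8°C (3775 to 4933) all lie above those at 30°C (1948 to 2836).

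Ratios between members do not depend on the library total. Among 6 pairs, chosen by place on the chromosome, and 4 comparisons of 2 groups, 1 of the 24 tests passed (exact permutation test over 924 assignments, two-sided, Benjamini-Hochberg over the 24). The count ratio of mt-Rnr2 to mt-Nd1, which are neighbours on the heavy strand with mt-Tl1 between them, ran from 8.41 over a median of 10.6 to 11.6 in BATdKO libraries at 30°C and from 5.98 over 7.11 to 8.41 at 8°C. The highest 8°C library and the lowest 30°C library nearly met but did not overlap. Its mean log2 ratio was 3.37 ± 0.16 (SD, n = 6) and 2.82 ± 0.18, a difference of -0.55 ± 0.10 (SE) with an exact p = 0.00216, the smallest that 6 against 6 can give, and an adjusted p = 0.052. With 1 library of these groups left out, the smallest p is 0.00433, which alone gives an adjusted p of 0.104, and the difference then ranged from -0.607 to -0.501. In Cre- libraries the same ratio ran from 4.88 over 6.89 to 11.9 at 30°C and from 3.40 over 7.21 to 9.38 at 8°C, so each group spread over the other (difference -0.15 ± 0.30, exact permutation p = 0.619).

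The remaining pairs did not pass. Between labels at 30°C, mt-Rnr2/mt-Nd1 differed by 0.56 ± 0.22 on the log2 scale (exact permutation p = 0.0368, adjusted p = 0.221). Between labels at 8°C, mt-Nd6/mt-Cytb, the light-strand messenger against the last heavy-strand messenger, differed by -0.45 ± 0.17 (exact permutation p = 0.0238, adjusted p = 0.221). The medians were 0.264 in Cre- and 0.193 in BATdKO libraries. mt-Rnr1/mt-Rnr2 differed there by -0.24 ± 0.09 (exact permutation p = 0.0325, adjusted p = 0.221) and mt-Co1/mt-Co3 by -0.18 ± 0.08 (exact permutation p = 0.052, adjusted p = 0.249). mt-Nd1/mt-Cytb, the first against the last heavy-strand messenger, had median ratios of 0.615, 0.682, 0.803 and 0.773 in Cre- 30°C, BATdKO 30°C, Cre- 8°C and BATdKO 8°C libraries. mt-Nd6/mt-Nd5 had 0.814, 0.806, 0.919 and 0.775 in the same order. For both pairs the 4 exact permutation p-values were 0.115 or higher.

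**Figure D5:**
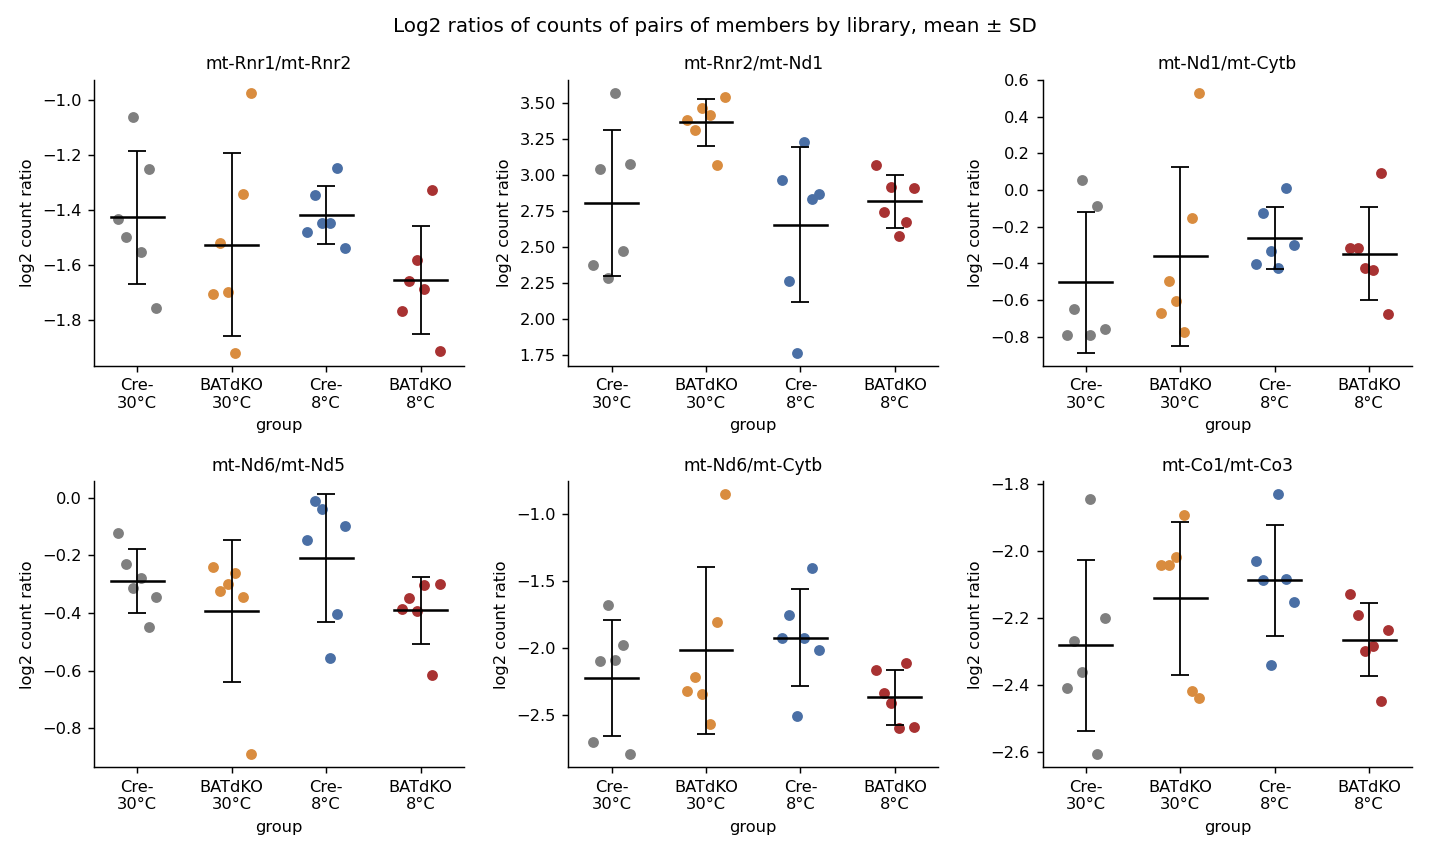
Log2 ratio of the counts of 6 pairs of members (y axes, not starting at 0) in each library (points) of the 4 groups of 6 (x axes), with mean and SD (lines). In the panel of mt-Rnr2/mt-Nd1, the BATdKO libraries at 30°C lie above those at 8°C, with means of 3.37 and 2.82.

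Members have near-identical copies in the nuclear genome, and some of these copies have rows of their own. Matching at 95% identity over at least 100 bases found 11 such rows for 9 members. A stretch of chromosome 1 holds copies of mt-Atp6, mt-Co2, mt-Co3, mt-Nd3 and mt-Nd4l, namely Gm10925, Gm28661, Gm28437, Gm28438 and Gm10222, whose counts were 0.995 to 1.05 times those of the member in every library. Partial copies held less, such as Gm28439 with a median of 0.101 times the count of mt-Nd4 and Gm29216 with 0.449 times that of mt-Co1. The copies took 4.04% to 7.19% of all counts. Without them in the total, a choice made after seeing the data, the members held 25.6%, 29.3%, 32.9% and 33.8% of the counts in Cre- 30°C, BATdKO 30°C, Cre- 8°C and BATdKO 8°C libraries. Reads of these 5 members and of their copies cannot be told apart. Transfer RNAs are shorter than the 100 bases asked for, so the match says nothing about copies of them.

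Nuclear genes that serve mitochondrial gene expression or encode the other respiratory subunits were set beside the members. 12 lists with 145 tested genes were used. With cold, 21 rose and 1 fell in Cre- libraries and 19 rose and 0 fell in BATdKO libraries (edgeR, adjusted p under 0.1). Of all genes tested, 5.57% and 3.76% were called higher, and 9.15% and 7.07% in either direction. Their median log2 fold changes were 0.14 and 0.19. Between labels 1 rose at 8°C, against 0.697% of all genes called higher. None changed at 30°C (14 at an unadjusted p under 0.05 and 0 by DESeq2) or for the interaction (5 and 0).

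Of the regulators, Ppargc1a, a coactivator of mitochondrial biogenesis, rose with cold by 1.27 ± 0.16 (SE, edgeR adjusted p = 3.71e-06) in Cre- and 0.95 ± 0.15 (adjusted p = 0.00023) in BATdKO libraries. In Cre- libraries 3 of 7 regulators rose, the others being Ppargc1b and Gabpa, against 5.57% of all genes called higher. Of 6 tested genes of the mitochondrial transcription machinery, the transcription factor Tfb2m rose in both labels (0.49 ± 0.13 with adjusted p = 0.0185, and 0.45 ± 0.13 with adjusted p = 0.0368). The polymerase Polrmt passed in BATdKO libraries (0.41 ± 0.12, adjusted p = 0.0364) and not in Cre- libraries (0.09 ± 0.12, adjusted p = 0.767), and the interaction, which tests that difference, did not pass (0.33 ± 0.16, adjusted p = 0.632). Rexo2, which degrades short mitochondrial RNAs, rose by 0.30 ± 0.07 (adjusted p = 0.0145) and 0.36 ± 0.07 (adjusted p = 0.00308). Mterf4, which acts in assembly of the mitochondrial ribosome, was the 1 gene called between labels at 8°C (0.54 ± 0.16, adjusted p = 0.0926).

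Nuclear subunits of the complexes had smaller median changes with cold than the members. The counts below stand against 5.57% of all genes called higher in Cre- and 3.76% in BATdKO libraries. Of 36 tested complex I subunits, 5 rose with cold in Cre- and 7 in BATdKO libraries, with medians of 0.16 and 0.23, among them Ndufa11 (0.32 ± 0.07 SE, edgeR adjusted p = 0.00537) and Ndufa9 (0.34 ± 0.09, adjusted p = 0.0241) in BATdKO libraries. Of 14 complex IV subunits, 2 rose under both labels, Cox7a1 (1.04 ± 0.22 SE, edgeR adjusted p = 0.00291, and 0.96 ± 0.22, adjusted p = 0.00803) and Cox8b (1.13 ± 0.30, adjusted p = 0.0214, and 0.90 ± 0.30, adjusted p = 0.0863), which are also in the list of brown adipocyte markers, as is Ppargc1a. Cox6a2, a muscle isoform, fell in Cre- libraries (-2.75 ± 0.93, edgeR adjusted p = 0.0818). Skeletal muscle markers reached 1.06% of the counts in 1 Cre- 30°C library, against medians of 0.0282% and 0.0525% in the Cre- groups at 30°C and 8°C. Whether that library bears on the fall of Cox6a2 was not tested. The complex III subunits Uqcrh (0.34 ± 0.09, adjusted p = 0.0152), Uqcrc1 and Uqcrq rose in Cre- libraries and Uqcr10 (0.30 ± 0.09, adjusted p = 0.0418) in BATdKO libraries, out of 9 tested. Of 16 tested complex V subunits, 1 rose in Cre- libraries, Atp5a1 (0.40 ± 0.10, edgeR adjusted p = 0.017). In BATdKO libraries 2 other complex V subunits rose, and the medians under the 2 labels were 0.11 and 0.21.

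Synthetases are the enzymes that load transfer RNAs with their amino acid. Of 18 tested, 1 rose with cold in Cre- and 0 in BATdKO libraries. This is near the share of all genes called higher in Cre- libraries (5.57%, and 3.76% in BATdKO libraries). The 1 called was Lars2 for leucine (0.40 ± 0.14 SE, edgeR adjusted p = 0.0873), whose partners mt-Tl1 and mt-Tl2 rose too. In BATdKO libraries mt-Tl1 (0.70) and mt-Tl2 (0.99) were also called with cold, but Lars2 was not (0.06 ± 0.14, edgeR adjusted p = 0.982). The partners of the transfer RNAs with the largest changes were not called. Between labels at 8°C, Vars2, the partner of mt-Tv, had 0.04 ± 0.11 (adjusted p = 0.968) and Cars2, the partner of mt-Tc, had -0.10 ± 0.17 (adjusted p = 0.943). With cold in Cre- libraries, Cars2 had 0.12 ± 0.17 (adjusted p = 0.786) and Nars2, the partner of mt-Tn, 0.37 ± 0.22 (adjusted p = 0.379).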

How the data were processed

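Forward reads of the QuantSeq 3′ libraries were trimmed by the authors (BBDuk), mapped by STAR on the GRCm38 build and summed for each gene in Rsubread. The values that the authors deposited are these counts, not normalized. The annotation release, the strand setting and the rule for leaving out genes are not given in the sources used here. The study removed outliers without naming them, so all 24 libraries were used. All 12615 Ensembl identifiers were matched to symbols through GENCODE M21 or, where it lacks them, a table of gene names.

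In R 4.3.3, counts were scaled by TMM, filtered by filterByExpr (12485 genes kept) and fitted with a mean per group by edgeR 4.0.16 (quasi-likelihood test). P-values were adjusted by Benjamini-Hochberg over all genes tested at the study's threshold of 0.1. Standard errors come from the F statistic. CPM uses TMM library sizes, and shares and ratios use deposited counts. Total counts averaged 7016649 per library. Each library is 1 mouse, as the labels give it. Wilson intervals cover counting error only.

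Alternatives were DESeq2 1.42.0, RLE factors, TMM without the members, library totals, other filters on low counts (none, or a mean count of at least 10), robust dispersion, only the groups compared, and each library left out. The edgeR fit and the permutation test of the ratios, and no other step, were tested on simulated data. Named were all messenger and ribosomal RNAs, every transfer RNA past the threshold in any comparison and the 3 most counted ones, Tbl1xr1, Tbl1x, Ucp1, the 5 related nuclear genes with the smallest p per comparison among those called, and the synthetase partners. Outside this rule, mt-Tq, mt-Tw, mt-Ty, mt-Tk, the nuclear copies, Ppargc1b, Gabpa, Tfb2m, Polrmt, Cox8b, Cox6a2, Uqcrc1, Uqcrq and Uqcr10 were named after their values were seen. The members and lists were chosen with earlier results of these data known.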

Additional observations from a re-analysis of the deposited data

Results flagged for a closer look

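In 12 of 168 groups of 6 libraries, over 42 measures, 1 library stood apart from the other 5 by Dixon's test, where chance gives about 1 in 20. 3 of them touch the label comparisons. mt-Tv had 14.6 CPM in Cre- 30°C mouse m6 against 5.24 to 7.56 in the others, and 49.7 CPM in BATdKO 8°C mouse m1 against 12.7 to 26.0. mt-Tc had 88.4 CPM in that same BATdKO 8°C library against 26.4 to 47.3 in the others. Without that library mt-Tc remained called at 8°C and mt-Tv did not.

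In the other transfer RNAs, mt-Tq had 103.7 CPM in Cre- 30°C mouse m1 (others 20.4 to 44.1). mt-Ts1 had 426.5 CPM in Cre- 30°C mouse m3 (others 160.7 to 208.4) and 241.2 CPM in BATdKO 8°C mouse m5 (others 165.8 to 192.6). mt-Te had 82.1 CPM in BATdKO 30°C mouse m4, below the others at 124.0 to 146.4. In Cre- 8°C libraries, mt-Tw had 14.3 CPM in mouse m1 (others 8.35 to 10.4), and mouse m6 had 3.67 CPM of mt-Tk (others 0.974 to 1.92) and 10.497 CPM of mt-Tr (others 6.17 to 7.07).

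The log2 ratio mt-Nd6/mt-Nd5 was -0.89 in BATdKO 30°C mouse m6 (others -0.34 to -0.24) and -0.62 in BATdKO 8°C mouse m5 (others -0.39 to -0.30).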

How the results depend on the processing

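The 55 single results followed here are 1 ratio, 38 calls of a member in a comparison and 16 members called in a comparison under an alternative only. Of their 1806 alternative values, 1691 kept their side of the threshold, 63 lost it, 52 gained it and 0 changed sign. Between the 2 scales signs did change. Of 23 calls made with counts scaled to the messengers, 14 were also made by TMM, 5 were not, and 4 had the other sign by TMM, namely mt-Co3 (0.23) and mt-Nd4 (0.22) for cold in Cre- and mt-Rnr1 (0.12) and mt-Tv (0.034) for cold in BATdKO libraries. Between labels at 8°C, 4 members (477 of 11892 genes) were called with only the compared groups in the fit and 1 (202 of 12485 genes) with robust dispersion, in place of 2 (227 of 12485). At 30°C DESeq2 called 2 (90 of 11147 genes) in place of 0. By TMM in place of scaling to the messengers, 19 members were called for cold in Cre- (10 scaled), 17 in BATdKO libraries (10 scaled) and 0 between labels at 30°C (1 scaled). With the 13 messengers alone, the share differed between labels at 30°C by -0.045 percentage points in place of 3.5.

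With each library left out, called members ranged from 1 to 4 between labels at 8°C, 0 to 5 at 30°C, 18 to 22 for cold in Cre-, 13 to 18 for cold in BATdKO and 0 to 0 for the interaction. Calls over all genes moved as well, from 138 to 276, 0 to 369, 791 to 1343, 574 to 1069 and 7 to 37 of 12499 to 12524 genes in the same order. Scaled to the messengers, the ranges of the members were 2 to 3, 0 to 2, 7 to 13, 8 to 12 and 0 to 0. Over all genes these were 143 to 236, 0 to 206, 6657 to 9249, 7498 to 9811 and 16 to 41. The share differed by -0.484 to 1.49, 2.5 to 4.57, 5.54 to 7.61 and 2.56 to 4.80 percentage points in that order, and the interaction by -3.98 to -1.73. Of the pair ratios, 0 to 3 passed. The causes were not tested.

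No paired analysis was possible because the groups share no mouse numbers. The added alternatives, chosen after seeing the data, removed nuclear copies from the table or the total, or nuclear copies, hepatocyte and Mup rows together from the total. Depth limits the transfer RNAs most, some of which have under 10 counts in a library.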
